A study of Mus musculus with 6 samples.

Results

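Nuclear genes of oxidative phosphorylation were followed in RNA sequencing of mouse bone marrow-derived macrophages (BMDMs) after co-culture with ID8, a mouse ovarian cancer cell line. They were the protein-coding genes whose symbol begins with Nduf, Uqcr, Atp5 or one of Cox4 to Cox8, together with Sdha, Sdhb, Sdhc and Sdhd. This gave 94 of the 54532 genes in the table, with 1 symbol (Atp5o) under a pair of identifiers. By role they were 36 subunits and 8 assembly factors of complex I, 4 subunits of complex II, 8 of complex III, 20 of complex IV, 17 of complex V, and Atp5s, a related protein. One group held 3 libraries of BMDMs grown with ID8 cells that first received 40 µM cisplatin, a DNA-crosslinking drug. The other held 3 libraries of BMDMs grown with ID8 cells that received phosphate-buffered saline (PBS) instead. By the study's methods the marrow cells came from C57BL/6 mice 6 to 8 weeks old. The labels give no genotype, no further agent and no length of co-culture for either group. How BMDMs were parted from ID8 cells before RNA extraction is not given in the sources used here. The study's methods speak of biological replicates, but whether these were separate mice or separate cultures is not given in the sources used here either. The p-values below therefore measure the spread between these libraries, which may be technical.

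Oxidative phosphorylation takes place in the inner mitochondrial membrane. Complexes I (NADH dehydrogenase) and II (succinate dehydrogenase) pass electrons to ubiquinone, complex III passes them on to cytochrome c, and complex IV (cytochrome c oxidase) hands them to oxygen. Complexes I, III and IV pump protons across the membrane, and complex V (ATP synthase) lets them return and makes ATP. Macrophages are known to shift between respiration and glycolysis with their activation state, and complex II also links respiration to the citric acid cycle.

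Nuclear respiratory factors bind close to the start of many of these genes, so the start regions were read before the expression values. RefSeq (GRCm38.p6) gave windows of 300 bases, 250 before to 50 after a gene's start, for 75 of the 94 genes, in 79 windows. The motif of NRF1 (GCGCA, any base, GCGC, searched on both strands like the others) was found in 25.3% of these windows and in 4.60% of all 32851 windows. The core of the ETS factor GABP (CCGGAAG) was in 22.8% against 8.86%, that of YY1 (AAGATGGC) in 12.7% against 2.75%, and that of ERR alpha (TCAAGGTCA) in 2.53% against 0.423%. In the 21263 windows of protein-coding genes, the nearer comparison, the shares were 6.38%, 11.6%, 3.05% and 0.334%. The 4 motifs were searched apart, so a window could hold more than 1, and matches could overlap. Of the windows of genes higher after cisplatin at the adjusted p alone, 5 of 21 held the NRF1 motif and 7 of 21 the GABP core. Of the windows of genes lower, 2 of 13 held the NRF1 motif and 0 of 13 the GABP core, and of those past neither, 13 and 11 of 42 did. A match is a description of letters and not a measured site.

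The windows of 4 genes are printed because the largest fall (Ndufv3), a large rise (Ndufaf4) and the opposite moves of a pair of genes for the same protein (Atp5g1 and Atp5g2, chosen after their values were seen) recur in the results. They are written 5′ to 3′ on the gene's strand, in lower case, with the NRF1 motif in capitals. The windows are chr17:31519865-31520164 (plus strand) for Ndufv3, chr4:24897833-24898132 (plus) for Ndufaf4, chr11:96075582-96075881 (minus) for Atp5g1 and chr15:102670998-102671297 (minus) for Atp5g2.
Ndufv3: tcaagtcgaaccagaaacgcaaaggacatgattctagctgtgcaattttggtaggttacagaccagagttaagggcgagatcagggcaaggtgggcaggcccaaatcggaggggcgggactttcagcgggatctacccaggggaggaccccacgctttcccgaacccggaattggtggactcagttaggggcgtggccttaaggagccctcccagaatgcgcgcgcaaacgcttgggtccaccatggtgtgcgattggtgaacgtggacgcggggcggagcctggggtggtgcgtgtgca
Ndufaf4: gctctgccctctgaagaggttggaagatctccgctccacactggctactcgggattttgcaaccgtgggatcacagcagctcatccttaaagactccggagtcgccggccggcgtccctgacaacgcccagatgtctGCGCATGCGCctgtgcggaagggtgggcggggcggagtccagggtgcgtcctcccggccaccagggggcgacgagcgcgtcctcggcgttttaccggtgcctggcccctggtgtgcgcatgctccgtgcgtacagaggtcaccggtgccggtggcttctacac
Atp5g1: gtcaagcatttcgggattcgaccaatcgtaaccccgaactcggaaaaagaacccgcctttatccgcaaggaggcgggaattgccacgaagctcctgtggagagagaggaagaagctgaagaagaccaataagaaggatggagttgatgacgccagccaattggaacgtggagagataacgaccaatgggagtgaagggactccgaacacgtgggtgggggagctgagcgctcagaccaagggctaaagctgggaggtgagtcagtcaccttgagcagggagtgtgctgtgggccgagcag
Atp5g2: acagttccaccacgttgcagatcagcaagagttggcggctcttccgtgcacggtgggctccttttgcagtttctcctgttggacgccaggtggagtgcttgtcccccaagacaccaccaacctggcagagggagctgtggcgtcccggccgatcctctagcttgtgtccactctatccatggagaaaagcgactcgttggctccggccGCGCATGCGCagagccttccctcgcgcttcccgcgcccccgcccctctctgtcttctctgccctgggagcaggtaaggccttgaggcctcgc
The NRF1 motif began at position -113 from the start in Ndufaf4, which rose, and at position -42 in Atp5g2, which fell. The start used by the Atp5g2 window lies 1305 bases inside the gene as GENCODE places it, and that of Atp5g1 39 bases inside, so these windows belong to another start than the outermost one. The windows of Ndufv3 and Atp5g1 held none of the 4 motifs.

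The reads recovered from the FPKM values (fragments per kilobase of gene length, scaled to library size) numbered 15907567 to 17924686 in the PBS libraries and 15776238 to 16396353 in the cisplatin libraries. Of the 94 genes, 88 reached 1 FPKM in at least 3 of the 6 libraries and were tested, and 84 of these had 50 or more reads in every library. The sample label was checked against marker genes. Macrophage markers were present in every library, and the sum of 8 of them was 1506 to 1527 FPKM after PBS and 3990 to 4138 after cisplatin, with 8 of 8 higher at the adjusted p. Markers of ID8 and mesothelial cells were present too, with a sum over 8 genes of 973 to 1048 FPKM after PBS and 165 to 179 after cisplatin. All 6 of those tested were lower, and Krt7 and Lrrn4 lay under 1 FPKM in every library. Krt19 fell from 588 ± 28.8 to 51.1 ± 3.80 FPKM (SD, n = 3). Of the lymphocyte markers, the B cell genes Cd79a and Cd79b rose from 63.9 ± 3.62 to 147 ± 6.34 FPKM and from 79.8 ± 2.69 to 178 ± 3.93 FPKM, while the T cell genes Cd3e and Cd3d lay under 1 FPKM throughout. The 4 Y-linked genes summed to 19.5 to 22.7 FPKM after PBS and 41.6 to 42.8 after cisplatin, and Xist lay at 39.0 to 48.8 and 7.57 to 7.94 FPKM. These markers moved with the treatment, and their part in the values below was not tested. In such bulk RNA, fewer cells of a type and less RNA per cell cannot be told apart.

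A pair of libraries were often the lowest of their group among the 88 genes, PBS replicate 2 most of all for the short ones. Of the 22 genes under 1 kb, PBS replicate 2 was the lowest of its group in 19, and cisplatin replicate 1 was the lowest of its group in 14. Among the 66 longer genes each was the lowest in 38. The median deviation of the 22 short genes from their group mean was -0.19 in PBS replicate 2 and -0.09 in cisplatin replicate 1 (log2 scale), where all tested genes under 1 kb deviated by -0.02 and -0.01. The 33 genes of 1 to 2 kb deviated by -0.082 and -0.055 in these libraries. Uqcr11, named here after its values were seen, and Cox8a are under 1 kb and had standard errors of 0.19 and 0.17 on the log2 scale. The median standard error was 0.073 over the 88 genes and 0.12 over the 22 under 1 kb. Over all tested genes under 1 kb it was 0.21.

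**Figure D1:**
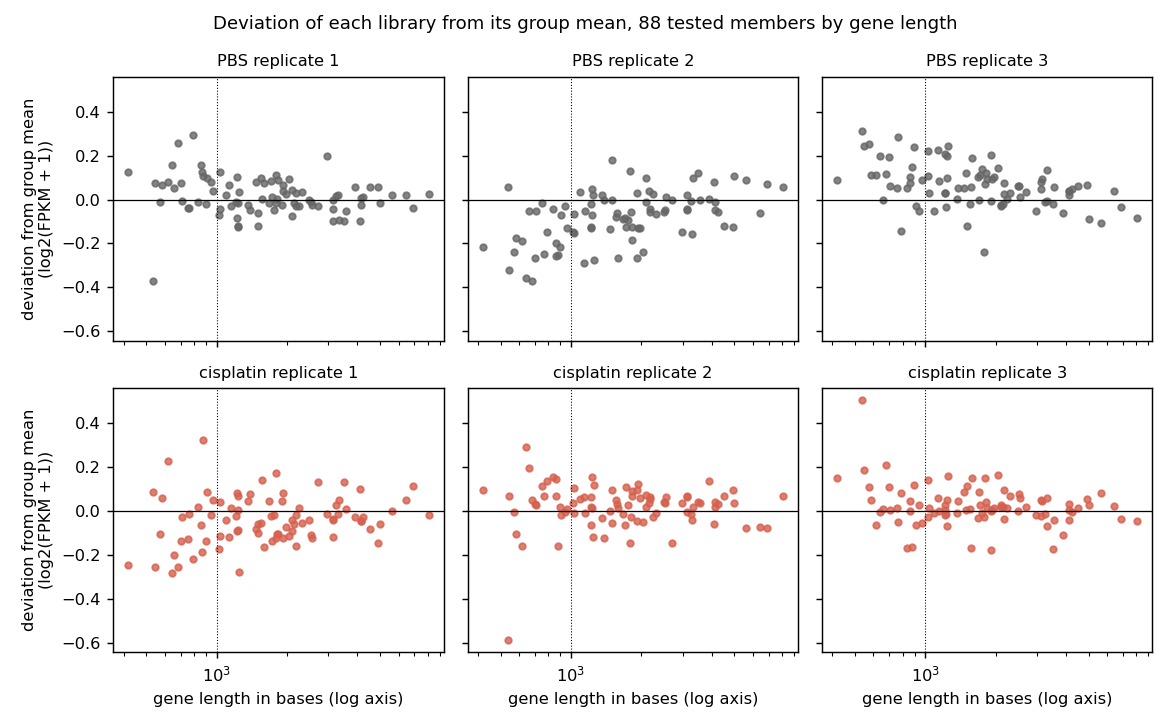
Deviation of each library from its group mean in log2(FPKM + 1) for each of the 88 tested genes (points), against gene length in bases on a log axis, with the dotted line at 1 kb and 1 panel per library. Points of genes under 1 kb lie mostly below 0 in PBS replicate 2 (median -0.19) and in cisplatin replicate 1 (median -0.09). The medians of genes of 1 to 2 kb in these libraries are -0.082 and -0.055.

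As a whole the genes of oxidative phosphorylation moved little. With the adjusted p under 0.05 and a log2 change of 1 or more in size (limma on log2(FPKM + 1), cisplatin against PBS), 1 of the 88 was called lower, Ndufv3, where 11.3% of all 13441 tested genes were. None was called higher (0 of 88), where 4.67% of all tested genes were, and 0 was also the count at an unadjusted p under 0.05 with that fold change and by limma voom on the recovered reads. At the adjusted p alone, 26 genes were higher (29.5%, against 32.9% of all tested), 16 were lower (18.2%, against 35.1%) and 46 passed in neither direction. By limma voom 39 were higher and 16 lower, beside 5271 and 4315 of all 13441 tested genes. The share of higher genes was then above that of all tested genes, while in the main fit it was below. These voom totals are the background for the voom counts of complexes and lists below. The 3 libraries of each group did not overlap for 30 genes that were higher and 19 that were lower, where the background was 35.2% and 37.2%. Scaling by the 4 Y-linked genes turned the balance at the adjusted p to 0 higher and 85 lower of the 88. Of all 13441 tested genes, 498 were then higher and 11096 lower, with a median of -0.83. None of the 26 rises was thus a rise under that scaling.

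The spread of the fold changes was narrow. The median over the 88 genes was 0.07 with quartiles at -0.14 and 0.27, beside a median of -0.001 and quartiles at -0.44 and 0.35 over all tested genes. A log2 fold change under 0.5 in size was found for 79 of the 88 genes (89.8%) and for 59.6% of all tested genes. The members' median, positive here and under the other scalings tried, was -0.88 under scaling by the Y-linked genes. Their mean level was 4.57 ± 0.073 after PBS and 4.59 ± 0.036 after cisplatin on the log2(FPKM + 1) scale (SD, n = 3), and they held 1.07% ± 0.058 and 1.09% ± 0.036 of the summed FPKM. These group values overlapped from library to library.

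**Figure D2:**
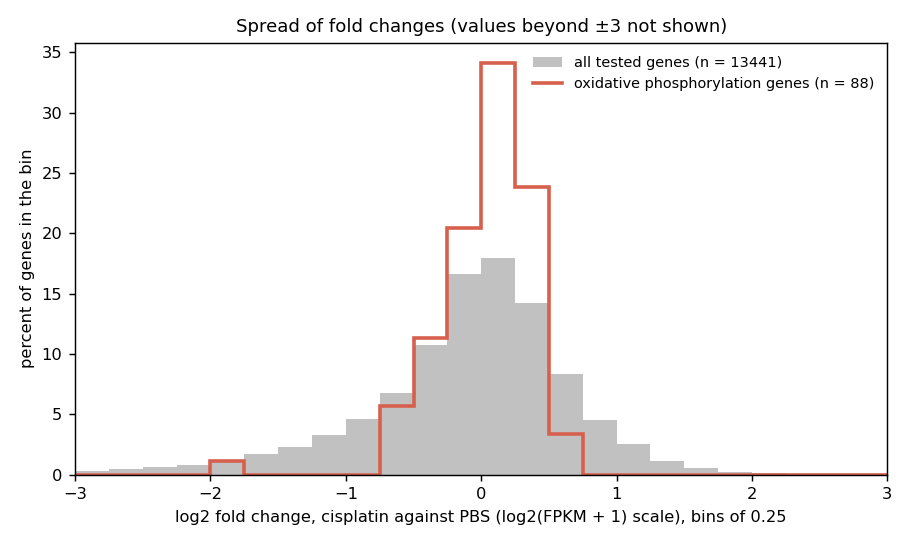
Percent of genes (vertical axis) in bins of 0.25 of the log2 fold change, cisplatin against PBS, on the log2(FPKM + 1) scale (horizontal axis, values beyond 3 in size not drawn), for all 13441 tested genes (grey) and the 88 tested oxidative phosphorylation genes (red line). The red line is narrower, with 79 of the 88 genes within 0.5 of 0, and its bin farthest to the left holds Ndufv3 alone.

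**Figure D3:**
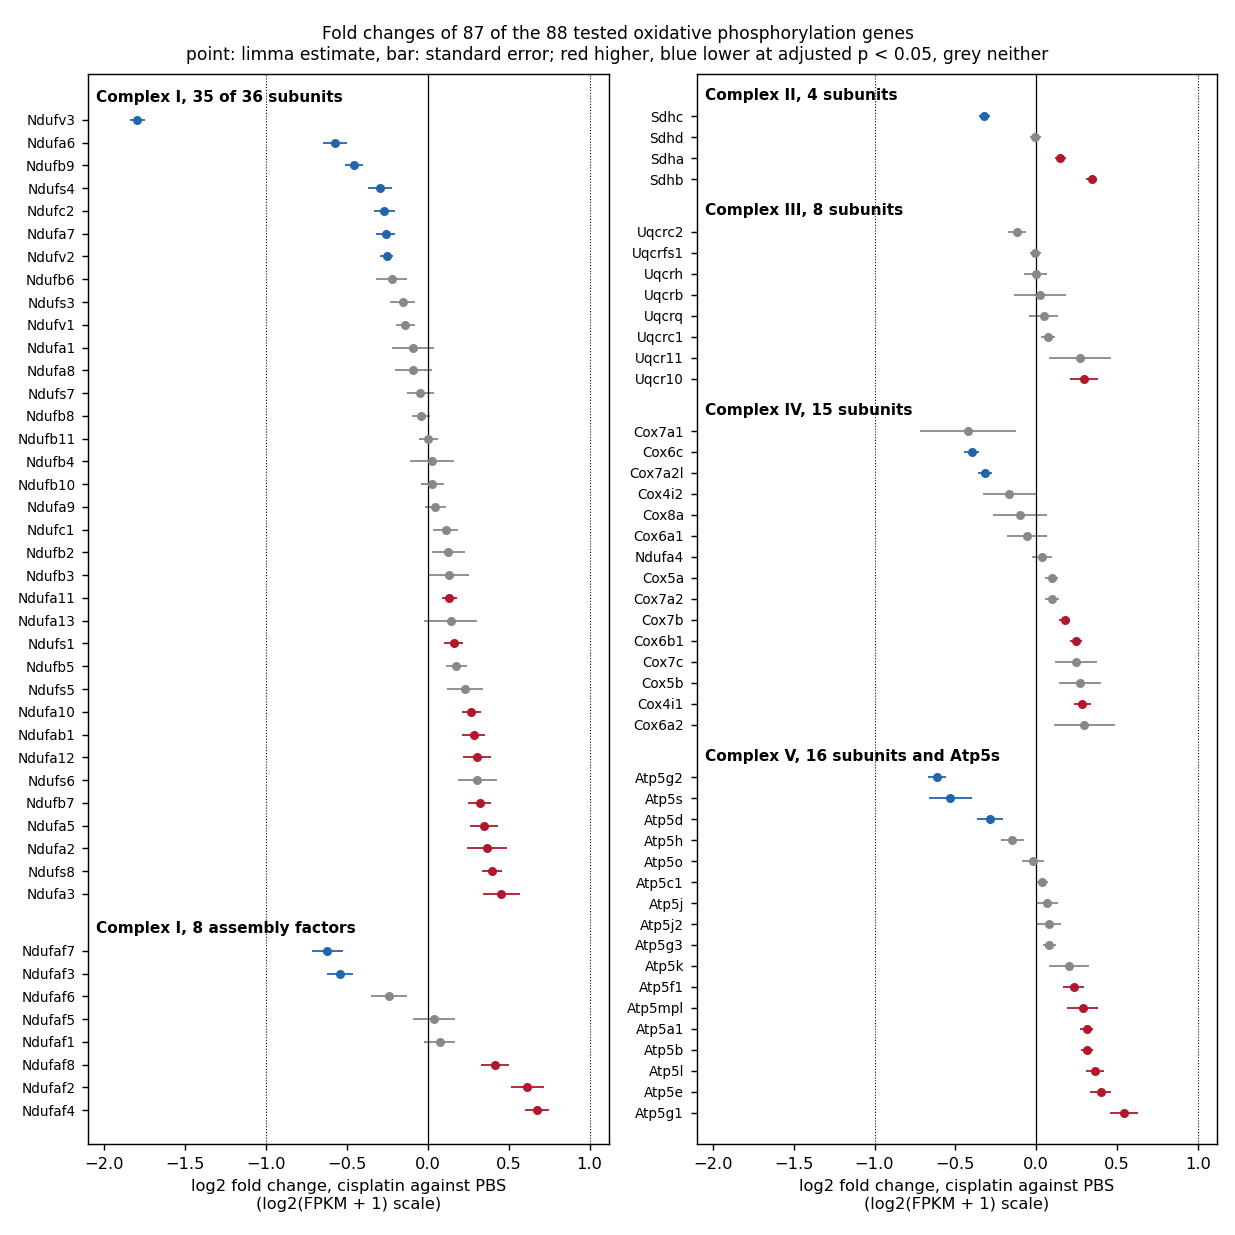
Log2 fold change, cisplatin against PBS, with its standard error for 87 of the 88 tested genes, ordered within each complex, with dotted lines at -1 and 1. Genes higher at the adjusted p (26) are red, genes lower (15 drawn) are blue and the other 46 are grey, and Ndufv3 alone lies beyond a dotted line.

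Complex I, the largest of the complexes, showed the one large change. The median over its 36 subunit genes was 0.04, with 10 higher (27.8%, beside 32.9% of all tested genes), 8 lower (22.2%, beside 35.1%) and 18 past neither side at the adjusted p. The median was -0.01 without PBS replicate 2 and -0.89 under scaling by the Y-linked genes, so its sign depended on these choices. The 16 genes of the matrix arm, which takes electrons from NADH, split into 5 higher (31.2%) and 6 lower (37.5%) with a median of -0.09. The 19 genes of the membrane arm, which holds the proton channels, split into 4 higher (21.1%) and 2 lower (10.5%) with a median of 0.11.

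Ndufv3 (ENSMUSG00000024038, chr17:31520115-31531326, plus strand, GRCm38) encodes a small subunit of the flavin-bearing tip of the matrix arm, where NADH is oxidised. Its FPKM was 34.1, 32.7 and 35.6 in the PBS libraries and 8.83, 9.39 and 9.12 in the cisplatin libraries. All 3 cisplatin values lay far below all 3 PBS values, and the spread within a group was small. The log2 fold change was -1.80 ± 0.046 (SE), with an adjusted p of 2.08e-07, and the mean FPKM was 3.75-fold lower. It rested on 374 to 1501 reads per library, and no other annotated gene overlapped it or shared a near-identical stretch with it. It was called lower in all 19 alternative settings.

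The other genes of the tip moved less. Ndufv1, which carries the flavin and binds NADH, had 27.2, 26.5 and 28.7 FPKM after PBS and 22.9, 25.5 and 26.3 after cisplatin (log2 fold change -0.14, adjusted p = 0.075). Ndufv2, an iron-sulphur subunit beside it, had 31.7, 33.0 and 31.6 FPKM after PBS and 25.7, 27.5 and 27.2 after cisplatin (-0.25, adjusted p = 0.00129). Both were named after their values were seen, as the neighbours of Ndufv3 in the complex. Within a library, Ndufv3 stood at 1.24 ± 0.0077 times the FPKM of Ndufv1 after PBS and at 0.367 ± 0.019 times after cisplatin (exact two-sided permutation p = 0.1, the smallest that 3 against 3 libraries allow). The ratio of Ndufv2 to Ndufv1 was 1.17 ± 0.073 and 1.08 ± 0.043 (exact permutation p = 0.2).

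The annotation of Ndufv3 bears on how its FPKM can be read. GENCODE M21 lists 5 transcripts, 3 of them coding. Ndufv3-201 has 4 exons and 1582 bases, of which 1092 lie in a single exon at chr17:31527310-31528401. Ndufv3-202 has 3 exons and 493 bases, which makes the first 3.21 times as long. A value for the whole gene counts more reads for a long transcript than for a short one, so fewer transcripts and shorter transcripts cannot be told apart, and isoform use was not tested. Wdr4, a tRNA methyltransferase subunit gene, was looked up after the Ndufv3 value was seen. Its highest annotated coordinate lies 141 bases before the start of Ndufv3, so the window printed for Ndufv3 reaches into Wdr4. Wdr4 had 3.86, 3.70 and 4.11 FPKM after PBS and 6.19, 6.98 and 6.94 after cisplatin (log2 fold change 0.66, adjusted p = 0.000116), opposite to Ndufv3. Under scaling by the Y-linked genes the difference of Wdr4 was -0.18, so the opposite directions depended on the scaling.

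Of the other complex I subunits, Ndufa3, a membrane arm subunit, had the highest fold change. It lay at 20.8, 19.7 and 25.7 FPKM after PBS and 26.8, 31.2 and 33.5 after cisplatin (0.45 ± 0.12, SE, adjusted p = 0.0113). Its groups did not overlap, but its spread was 3.20 and 3.41 FPKM. Ndufs8, an iron-sulphur subunit singled out after its values were seen, had the next highest at 36.1 ± 2.90 and 47.7 ± 1.76 FPKM (SD, n = 3, log2 fold change 0.40, adjusted p = 0.00124). Ndufa1, the subunit gene with the highest level, did not pass, with 70.5, 55.5 and 68.6 FPKM after PBS and 50.8, 64.5 and 67.2 after cisplatin (-0.09, adjusted p = 0.547). PBS replicate 2 and cisplatin replicate 1 were again the low libraries of this short gene, and the difference was 0.03 without the latter.

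Below Ndufv3, the next falls were those of Ndufa6 and Ndufb9, both of the LYR protein family, which were singled out after their values were seen. Ndufa6 had 29.0, 28.2 and 30.9 FPKM after PBS and 17.7, 19.0 and 21.6 after cisplatin (-0.58 ± 0.076, SE, adjusted p = 0.000462). Ndufb9 had 29.8, 29.3 and 33.1 FPKM after PBS and 22.8, 21.9 and 21.6 after cisplatin (-0.46 ± 0.054, SE, adjusted p = 0.000273). In neither did the groups overlap. Ndufs4, Ndufc2, Ndufa7 and Ndufv2 fell by between 0.25 and 0.30 on the log2 scale.

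Ndufc2, a membrane arm subunit, had 50.7, 51.6 and 54.1 FPKM after PBS and 39.3, 46.8 and 43.5 after cisplatin (-0.27 ± 0.066, SE, adjusted p = 0.00898). It was included because Kctd14, the gene 43521 bases beyond its end, fell from 131 ± 3.80 to 1.55 ± 0.17 FPKM (-5.70). The subunit gene and its neighbour therefore changed by very different amounts.

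The 8 complex I assembly factors, which help build the complex and are not part of it, had a median of 0.05. At the adjusted p 3 were higher (37.5%, beside 32.9% of all tested genes) and 2 lower (25%, beside 35.1%), with 4 of the 8 within 0.5 of 0. The median was 0.13 without PBS replicate 2, -0.04 without PBS replicate 3 and -0.78 under scaling by the Y-linked genes. Ndufaf4 (chr4:24898083-24905001, plus strand) had the highest log2 fold change of the 88 genes on the log2(FPKM + 1) scale, while with a pseudocount of 0.1 Ndufaf2 stood above it (0.87 against 0.77), as it did by the ratio of mean FPKM (1.85 against 1.73). Ndufaf4 lay at 4.87, 4.66 and 4.41 FPKM after PBS and at 7.85, 8.90 and 7.36 after cisplatin (0.68 ± 0.075, SE, adjusted p = 0.000197). Every cisplatin library was above every PBS library, on 267 to 570 reads.

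Ndufaf7, a methyltransferase that modifies a complex I subunit, went the other way. It lay at 7.34, 8.72 and 7.81 FPKM after PBS and at 5.37, 4.97 and 4.15 after cisplatin (-0.62 ± 0.097, SE, adjusted p = 0.00107). The 2 groups did not overlap. The ratio of Ndufaf4 to Ndufaf7 was 0.587 ± 0.067 after PBS and 1.67 ± 0.18 after cisplatin (exact permutation p = 0.1), so which of the 2 transcripts was the more abundant per length changed. Ndufaf1, the assembly factor with the highest level, had 7.83, 9.45 and 7.48 FPKM and 8.30, 8.32 and 9.48 FPKM, and did not pass (0.07, adjusted p = 0.519). Leaving out 1 library moved its difference from 0.012 to 0.16.

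The remaining assembly factors were named after their values were seen. Ndufaf2 rose from 1.60 ± 0.33 to 2.97 ± 0.088 FPKM (0.62, adjusted p = 0.00159) but shares near-identical stretches with 8 other genes and overlaps other genes, so its value is uncertain. Ndufaf8 rose from 6.22 ± 0.25 to 8.67 ± 1.08 FPKM (0.42, adjusted p = 0.00446). Ndufaf3, which overlaps Impdh2, fell from 8.20 ± 0.78 to 5.31 ± 0.40 FPKM (-0.54, adjusted p = 0.000862). Ndufaf5 (0.04, adjusted p = 0.814) and Ndufaf6 (-0.24, adjusted p = 0.089) did not pass. Ndufaf6 did pass without cisplatin replicate 2 (adjusted p = 0.0464), once a fit on gene length was removed (0.0431) and with protein-coding genes only (0.0497).

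Complex II is the smallest complex, with 4 subunits that are all nuclear-encoded, and its genes were measured with small errors. Sdha, the flavin-bearing subunit that oxidises succinate, had 49.8, 50.3 and 52.1 FPKM after PBS and 54.5, 57.0 and 57.6 after cisplatin (0.15 ± 0.037, SE, adjusted p = 0.0096). Sdhb, the iron-sulphur subunit, had 23.5, 24.4 and 24.1 FPKM after PBS and 31.0, 30.1 and 31.0 after cisplatin (0.34 ± 0.035, SE, adjusted p = 0.000129). Both subunits of the matrix part were thus higher, with no overlap between the groups, a direction that turned under scaling by the Y-linked genes (-0.83 and -0.62).

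The membrane anchors, which hold the ubiquinone site, did not follow. Sdhc had 29.1, 28.6 and 28.5 FPKM after PBS and 23.2, 22.6 and 22.6 after cisplatin (-0.32 ± 0.034, SE, adjusted p = 0.000142). Sdhd had 72.0, 75.1 and 71.1 FPKM after PBS and 72.6, 73.1 and 71.6 after cisplatin (-0.01 ± 0.034, SE, adjusted p = 0.903), and its groups overlapped. The ratio of Sdhb to Sdhc, which does not depend on library scaling, went from 0.836 ± 0.024 to 1.35 ± 0.022 (exact permutation p = 0.1). The order of the levels, Sdhd above Sdha, was the same in both groups, while Sdhc stood above Sdhb after PBS and below it after cisplatin.

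**Figure D4:**
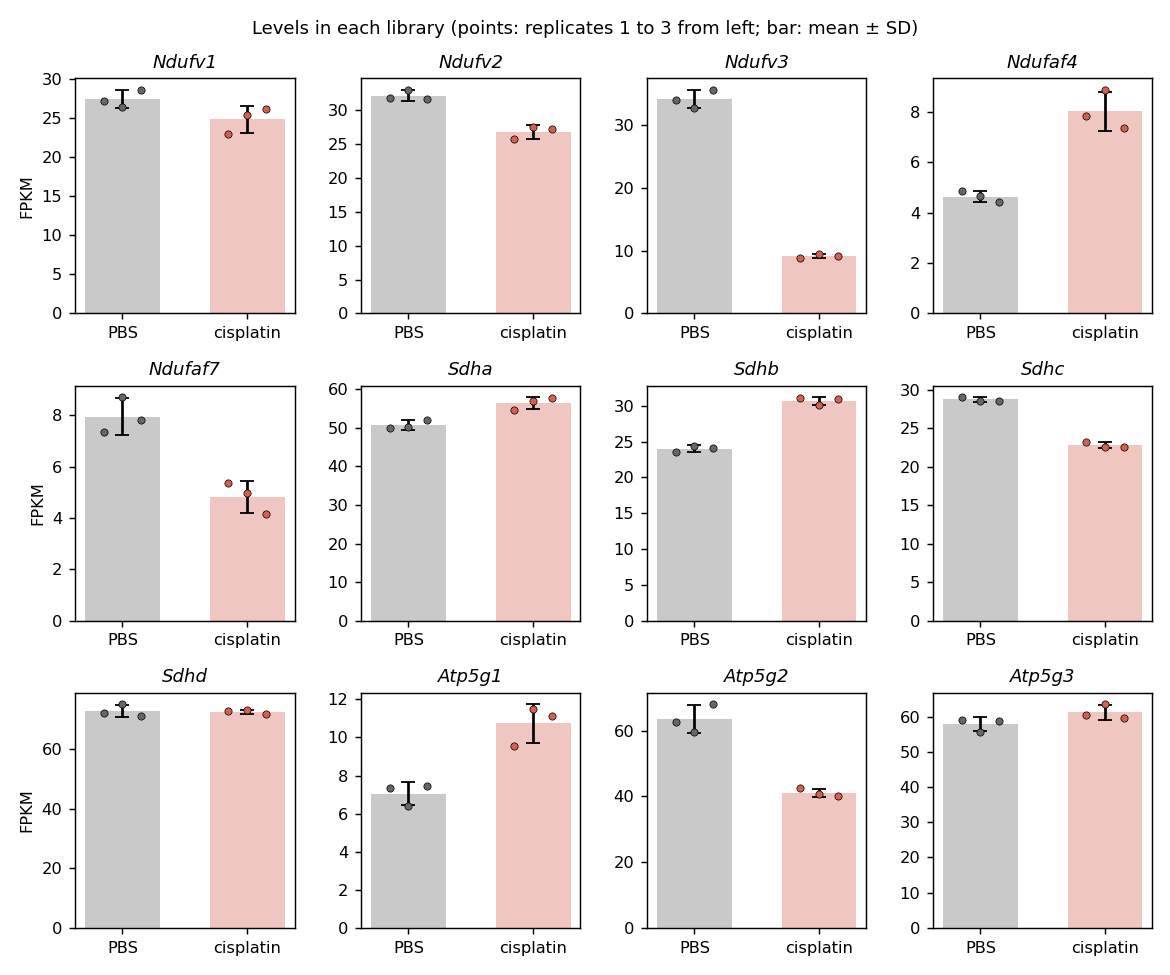
FPKM (vertical axes, starting at 0) of 12 genes in each library, with points for replicates 1 to 3 from left to right, bars at the group mean and whiskers of 1 SD (n = 3). Ndufv3 falls from 34.1 to 9.11 FPKM while Ndufv1 and Ndufv2 stay above 22, Ndufaf4 and Ndufaf7 cross, Sdhb and Sdhc cross, and Atp5g1 and Atp5g2 move in opposite directions.

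Complex III showed few changes. Of its 8 subunit genes 1 was higher (12.5%, beside 32.9% of all tested genes) and 0 were lower (beside 35.1%) at the adjusted p by limma, counts that were 1 and 0 at an unadjusted p under 0.05 and 3 and 0 by limma voom. The median was 0.03, and it was -0.01 once a fit on gene length was removed and -0.93 under scaling by the Y-linked genes. Uqcrfs1, the Rieske iron-sulphur protein and the most abundant of the 8 over all libraries, though below Uqcr10 in 2 of the 3 cisplatin libraries, had 54.3, 55.9 and 55.3 FPKM after PBS and 56.7, 53.6 and 54.4 after cisplatin (-0.01 ± 0.035, SE, adjusted p = 0.873). Uqcr10, a small subunit, was the gene that rose, from 48.5, 40.9 and 50.1 to 59.4, 52.9 and 59.0 FPKM (0.29 ± 0.085, SE, adjusted p = 0.0188). Its adjusted p was 0.0589 without cisplatin replicate 1, 0.0602 without cisplatin replicate 3, 0.0511 with no filter on low values and 0.178 once a fit on gene length was removed. Uqcrc2, a core subunit, had 39.6, 40.7 and 40.7 FPKM and 33.9, 38.8 and 38.6 FPKM (-0.12 ± 0.057, SE, adjusted p = 0.0973), and its groups did not overlap though it did not pass. Its difference was -0.06 without cisplatin replicate 1.

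Complex IV has subunits with a common and an alternative gene, the latter known from muscle, lung or testis. Of its 20 genes 15 were tested, with 3 higher (20%, beside 32.9% of all tested genes) and 2 lower (13.3%, beside 35.1%) at the adjusted p and a median of 0.10. By limma voom 7 were higher and 2 lower. The median was -0.01 once a fit on gene length was removed and -0.86 under scaling by the Y-linked genes. The 11 common genes held all 3 rises and 1 of the falls. Cox4i1, which has a regulatory role in the complex, had 114, 101 and 105 FPKM after PBS and 125, 135 and 131 after cisplatin (0.28 ± 0.054, SE, adjusted p = 0.0028). It shares a near-identical stretch with 1 other gene and overlaps Emc8, so part of its reads may belong elsewhere. Cox6b1, which joins the monomers of the dimeric enzyme, rose from 90.7 ± 3.64 to 108 ± 2.12 FPKM (0.25, adjusted p = 0.00122), and Cox7b rose from 42.7 ± 0.81 to 48.4 ± 0.77 FPKM (0.18, adjusted p = 0.00262). In all 3 the groups did not overlap, and all 3 differences were negative under scaling by the Y-linked genes.

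The common gene that fell was Cox6c, singled out after its values were seen. It had 27.0, 28 and 29.3 FPKM after PBS and 21.1, 21.6 and 20.4 after cisplatin (-0.40 ± 0.044, SE, adjusted p = 0.000184). It has 1 near-identical copy and overlaps Vps13b, so part of its reads may belong elsewhere. The ratio of Cox4i1 to Cox6c was 3.81 ± 0.37 after PBS and 6.19 ± 0.25 after cisplatin (exact permutation p = 0.1). Genes of a single complex thus differed in direction within the same libraries.

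The most abundant genes of complex IV did not pass. Cox8a, with the highest level of the 88 genes, had 221, 168 and 249 FPKM after PBS and 164, 205 and 223 after cisplatin (-0.10 ± 0.17, SE, adjusted p = 0.619). Cox6a1 had 200, 158 and 217 FPKM and 166, 186 and 196 FPKM (-0.06 ± 0.12, SE, adjusted p = 0.695). In both, PBS replicate 2 and cisplatin replicate 1 were the low libraries, and the sign of the difference turned when PBS replicate 3 or cisplatin replicate 1 was left out. Cox7a2 (0.10, adjusted p = 0.0842) and Ndufa4, which is known as a complex IV subunit despite its name (0.04, adjusted p = 0.612), did not pass either. Cox7a2 did pass without PBS replicate 1 (adjusted p = 0.0213), with scaling by the total of recovered reads (0.18, adjusted p = 0.0111), with quantile normalisation (0.15, 0.0292) and by limma voom (0.18, 0.0123).

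Cox7a2l is known for linking complexes III and IV into supercomplexes. Whether its protein does so in the mouse strain used here was not tested. The Cox7a2l transcript fell. It had 102, 101 and 111 FPKM after PBS and 84.5, 82.9 and 83.5 after cisplatin (-0.32 ± 0.043, SE, adjusted p = 0.000501). Its cisplatin libraries lay close together and below all PBS libraries. It stood above Cox7a2, its relative within the complex, in both groups, and the ratio of Cox7a2 to Cox7a2l went from 0.591 ± 0.051 to 0.788 ± 0.017 (exact permutation p = 0.1).

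The alternative genes of complex IV were low or near 0. Of 8, 3 were tested and 0 passed in either direction at the adjusted p by limma, at an unadjusted p under 0.05 or by limma voom. Cox6a2, the muscle form of Cox6a1, had 4.49, 2.55 and 3.98 FPKM after PBS and 3.72, 4.84 and 5.52 after cisplatin, on 27 to 62 reads (0.30 ± 0.19, SE, adjusted p = 0.203). Cox7a1 had 1.80, 2.76 and 3.50 FPKM and 1.87, 0.797 and 2.83 FPKM on 7 to 29 reads (-0.42 ± 0.30, SE, adjusted p = 0.249), and Cox4i2, the lung form, had 1.79, 1.06 and 1.06 FPKM and 0.746, 1.24 and 1.15 FPKM (-0.17, adjusted p = 0.40). Leaving out 1 library moved Cox6a2 from 0.11 (without PBS replicate 2) to 0.42 and Cox7a1 from -0.67 to -0.13 (without cisplatin replicate 2). Cox4i2 likewise moved from -0.24 to -0.020, and none of these passed. At this depth no difference could be shown for these 3 genes. Cox6b2 lay between 0.612 and 1.40 FPKM, Cox7b2 between 0 and 0.562 and Cox8b between 0 and 0.537, and Cox8c was listed at 0 in all 6 libraries. Ndufa4l2, the alternative form of Ndufa4, had 0.361, 0.293 and 0.530 FPKM after PBS and 0, 0.0556 and 0.0553 after cisplatin, on 0 to 9 reads. Its groups did not overlap, and the filter on low values left it out of the fit, while with no filter it was lower (-0.42, adjusted p = 0.00717).

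Complex V held 7 of the 26 rises. Of its 16 tested subunit genes 7 were higher (43.8%, beside 32.9% of all tested genes), 2 were lower (12.5%, beside 35.1%) and 7 passed in neither direction. By limma voom 11 were higher and 2 lower, beside 5271 and 4315 of all 13441 tested genes. The median was 0.14, and it became -0.81 under scaling by the Y-linked genes. Their mean level was 5.10 ± 0.079 after PBS and 5.21 ± 0.0062 after cisplatin on the log2(FPKM + 1) scale (SD, n = 3), and all 3 cisplatin libraries (5.208, 5.218 and 5.219) lay above the highest PBS library (5.179). Their share of the summed FPKM was 0.257% ± 0.0084 and 0.281% ± 0.0036.

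In the catalytic F1 part, 3 of 5 genes rose and 1 fell, where 32.9% and 35.1% of all tested genes did. Atp5b, the catalytic beta subunit, had 158, 150.1 and 161 FPKM after PBS and 191, 199 and 194 after cisplatin (0.31 ± 0.038, SE, adjusted p = 0.000294). Atp5a1, the alpha subunit that alternates with it in the head, had 151, 147 and 156 FPKM and then 183, 196 and 185 FPKM (0.31 ± 0.041, SE, adjusted p = 0.000459). The 2 genes of the head moved alike, with a ratio of 0.969 ± 0.010 after PBS and 0.968 ± 0.018 after cisplatin (exact permutation p = 1). Atp5e, the epsilon subunit, rose (0.40, adjusted p = 0.0013), while Atp5d, the delta subunit beside it in the stalk, fell from 53.2 ± 4.28 to 43.4 ± 3.79 FPKM (-0.29, adjusted p = 0.0163). The adjusted p of Atp5d was 0.0524 without PBS replicate 1 and 0.0531 without PBS replicate 3, and 0.0636 with scaling by the total of recovered reads. Of these, Atp5a1, Atp5d and Atp5e were named after their values were seen, and the rises turned to falls under scaling by the Y-linked genes.

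The c ring, which turns as protons pass, is made of 1 protein encoded by 3 genes that differ in the targeting sequence removed on import. Atp5g1 (chr11:96068852-96075670, minus strand) had 7.36, 6.38 and 7.43 FPKM after PBS and 9.58, 11.5 and 11.1 after cisplatin (0.54 ± 0.085, SE, adjusted p = 0.00110). Atp5g2 (chr15:102662864-102672352, minus strand) had 62.8, 59.6 and 68.1 FPKM after PBS and 42.4, 40.6 and 40.2 after cisplatin (-0.61 ± 0.054, SE, adjusted p = 6.18e-05). In neither did the groups overlap, and the genes moved in opposite directions. Under scaling by the Y-linked genes both were lower, with Atp5g1 at -0.35.
Atp5g3, the third gene, had 59.0, 55.5 and 58.8 FPKM after PBS and 60.4, 63.6 and 59.7 after cisplatin and did not pass (0.08 ± 0.041, SE, adjusted p = 0.122). It did pass with scaling by the total of recovered reads (0.17, adjusted p = 0.0116), with quantile normalisation (0.14, 0.0183) and by limma voom (0.17, 0.00547). Of the summed FPKM of the 3 genes, Atp5g1 held 5.49% ± 0.23 after PBS and 9.49% ± 0.85 after cisplatin, Atp5g2 49.4% ± 1.10 and 36.4% ± 1.31, and Atp5g3 45.1% ± 1.11 and 54.1% ± 0.69 (SD, n = 3, exact permutation p = 0.1 for each). The most abundant of the 3 per length was therefore Atp5g2 after PBS and Atp5g3 after cisplatin. Atp5g1 and Atp5g2 have 1 and 2 other genes with a near-identical stretch, so their reads may be shared in part. The start regions printed above differ in that the one of Atp5g2 holds the NRF1 letters and the one of Atp5g1 does not.

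The other parts of ATP synthase had 4 tested genes each, to be read beside the 32.9% of all tested genes that were higher and the 35.1% that were lower. In the peripheral stalk 1 of 4 tested genes was higher and 0 were lower (by limma at the adjusted p, and likewise at an unadjusted p under 0.05, with 2 and 0 by limma voom), the riser being Atp5f1 (0.23, adjusted p = 0.0153). In the membrane part 2 of 4 were higher and 0 lower (2 and 0 at an unadjusted p, 3 and 0 by limma voom). These were Atp5l, at 6.65 ± 0.28 and 8.84 ± 0.43 FPKM (0.36, adjusted p = 0.000975), and Atp5mpl, at 25.1 ± 3.39 and 30.7 ± 1.67 FPKM (0.29, adjusted p = 0.0296), and like Atp5f1 they were named after their values were seen. Atp5l shares near-identical stretches with 10 other genes and Atp5f1 with 2. Both also overlap other genes, so their values are uncertain. Atp5mpl did not pass without PBS replicate 1 or 2 or without cisplatin replicate 1 or 3 (adjusted p = 0.0633 to 0.0917), nor with no filter on low values (0.0746) or once a fit on gene length was removed (0.0691). Atp5s, a related protein outside the enzyme, fell from 2.62 ± 0.50 to 1.49 ± 0.25 FPKM on 45 to 102 reads (-0.53 ± 0.13, SE, adjusted p = 0.0096). The second identifier of Atp5o was listed at 0 in all 6 libraries.

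The values differed between length classes, with no steady order. The 88 genes had a median length of 1688 bases in the table, where all tested genes had 3766. Among the 11 that were 4 kb or longer, 8 were higher and 0 lower at the adjusted p (9 and 0 at an unadjusted p under 0.05, 10 and 0 by limma voom) with a median of 0.23, while all tested genes of that length had a median of -0.04, with 33.0% higher and 40.0% lower. By limma voom 2630 of the 6335 tested genes of that length were higher and 2374 lower. These 11 included Atp5b, Atp5g1, Atp5l and Sdha. Among the 22 under 1 kb, 5 were higher (22.7%, beside 25.5% of all tested genes under 1 kb) and 1 lower (4.55%, beside 13.8%) with a median of 0.11, where all tested genes under 1 kb had a median of 0.17. Between these, the 33 genes of 1 to 2 kb had 8 higher (24.2%, beside 34.1% of all tested genes of that length), 7 lower (21.2%, beside 32.4%) and a median of 0.04. The 22 of 2 to 4 kb had 5 higher (22.7%, beside 35.9%), 8 lower (36.4%, beside 38.2%) and a median of -0.08. The part of length in the differences between complexes was not tested beyond the removal of a fit on length.

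Mitochondria encode 13 subunits of their own, which join the nuclear ones in complexes I, III, IV and V. Of these 12 were tested, with 7 higher (58.3%, beside 32.9% of all tested genes), 1 lower (8.33%, beside 35.1%) and a median of 0.46 (-0.53 under scaling by the Y-linked genes), beside 23 and 13 of the 79 tested nuclear subunits with a median of 0.07. The difference between these lists was not tested. mt-Nd1 had 1252, 1432 and 1338 FPKM after PBS and 2580.3, 2239 and 2229 after cisplatin (0.81, adjusted p = 7.85e-05), and was named after its values were seen. mt-Nd3, the one gene past both thresholds, had 19.6, 18.6 and 26.3 FPKM and 60.5, 56.7 and 40.4 FPKM (1.24 ± 0.18, SE, adjusted p = 0.000768), a call lost under scaling by the Y-linked genes (0.27, adjusted p = 0.224). mt-Co1, a complex IV subunit and the most abundant of them, fell (-0.33, adjusted p = 0.00382, and 0.41 with no filter on low values). Libraries were made from poly-T selected RNA, and mt-Co2, mt-Co3 and mt-Atp6 differed widely within a group, so these levels are less certain than those of the nuclear genes.

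The carriers that join the complexes changed at shares near or below those of all tested genes. Of 20 genes for cytochromes, electron transfer flavoproteins and ubiquinone synthesis, 6 were higher (30%, beside 32.9%) and 5 lower (25%, beside 35.1%), with a median of 0.07. Cycs, cytochrome c, rose from 16.4 ± 1.53 to 29.2 ± 1.02 FPKM (0.80, adjusted p = 5.40e-05) and was named after its values were seen. Under scaling by the Y-linked genes Cycs was at -0.15 (limma adjusted p = 0.206) and the median of the 20 genes at -0.73. Cyc1, the cytochrome c1 of complex III that the name rule does not reach, had 41.1 ± 2.02 and 44.0 ± 4.13 FPKM (0.10, adjusted p = 0.277), but passed with quantile normalisation (0.19, 0.0366) and by limma voom (0.18, 0.0191). Leaving out 1 library moved its difference from 0.025 to 0.15, and scaling by the Y-linked genes put it at -0.88. Coq3, a methyltransferase of ubiquinone synthesis, was called lower, from 9.17 ± 0.46 to 3.89 ± 0.37 FPKM (-1.06, adjusted p = 1.66e-05).

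**Figure D5:**
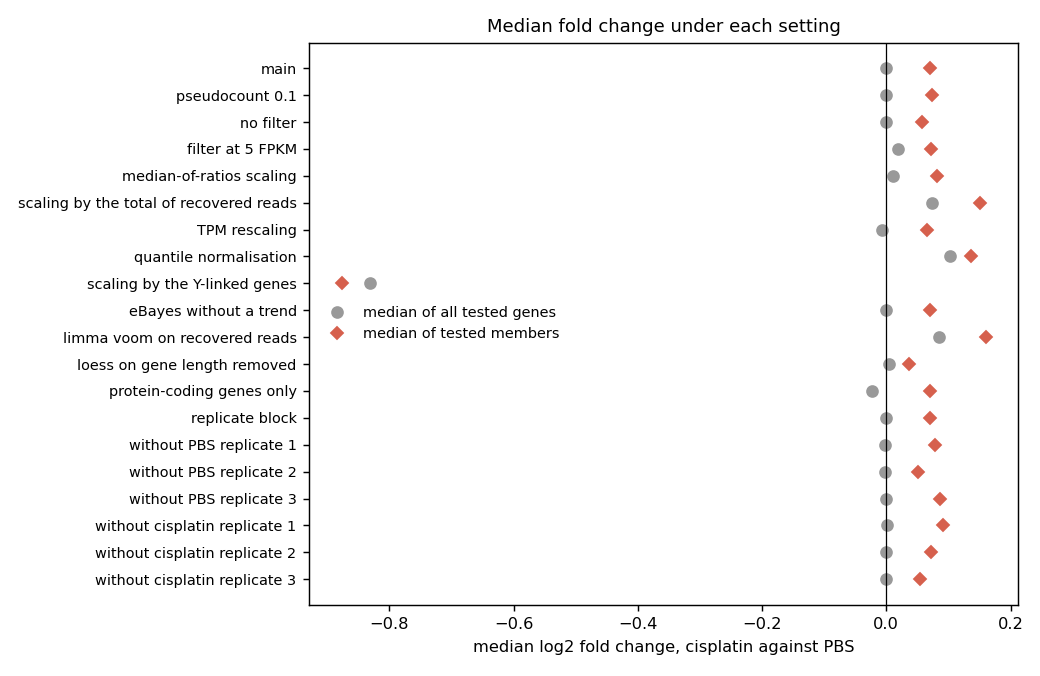
Median log2 fold change, cisplatin against PBS (horizontal axis), under the main settings and 19 alternatives (rows), for the 88 oxidative phosphorylation genes (red diamonds) and all tested genes (grey circles). The diamonds stand right of the circles in each row except scaling by the Y-linked genes, where the medians are -0.88 and -0.83.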

How the data were processed

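Poly-T selected RNA of 6 libraries (3 PBS, 3 cisplatin, grouped by the labels' treatment) was analysed from a table of FPKM values that the authors deposited for 54532 genes. The submitters' processing notes name fastp, HISAT2 2.0.5, featureCounts 1.5.0-p3 and the build mm10, while the study's methods name LifeScope for alignment and counting, and whether strand was used is not given in the sources used here. Gene lengths in the table cover all exons of a gene, which lowers the FPKM of genes with many isoforms. All 94 identifiers were found in GENCODE M21 of GRCm38, 88 with the same start and end.

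FPKM times length gave whole reads (100% of values under 200 reads, within 0.05), and 15776238 to 17924686 reads were recovered per library. The FPKM denominator was 97.4% to 98.7% of that sum in the PBS libraries and 103.7% to 104.1% in the cisplatin libraries. Counting error is therefore small for most of these genes, and the fewest reads behind a tested one in a library were 7.

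Genes with at least 1 FPKM in at least 3 libraries (13441) entered a limma 3.58.1 fit under R 4.3.3 on log2(FPKM + 1), a scale that understates the change of low genes, with group as the only term and eBayes with a trend. P-values were adjusted by Benjamini-Hochberg over all tested genes. Calls needed an adjusted p under 0.05 together with a log2 change of 1 or more in size, after the study's own threshold. Ratios within a library were compared by a two-sided exact permutation test over libraries, whose smallest p is 0.1 with 3 against 3, so it cannot reach 0.05. Genes overlapping another gene (40 of 94) or sharing 150 or more bases at 97% identity or more with another gene's transcript (30 of 94) are less certain. The procedure was tested on simulated data.

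The values of 2 genes are not reported here. The genes and lists were chosen with earlier results of these data known. By rule the text names genes past both thresholds, in each complex (assembly factors apart) the gene with the highest level, the highest and the lowest fold change, the Sdh genes, genes with an alternative isoform gene, Ndufc2 with its neighbour Kctd14, and a few genes outside (Cyc1, AA467197, Krt19, Xist, the Y-linked genes and genes of the other lists past both thresholds). Every other gene named was picked with its values known. Alternatives were 0.1 as the pseudocount, no filter or one at 5 FPKM, 5 other scalings (median of ratios, total of recovered reads, TPM rescaling, quantile normalisation, the 4 Y-linked genes), limma voom on recovered reads, eBayes with no trend, subtraction of a loess curve over gene length, a fit of protein-coding genes alone, the replicate number as a block, and leaving out each library. Equal replicate numbers did not deviate together (correlations of -0.10, -0.086 and -0.024 over tested genes), so they were not taken as pairs.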

Additional observations from a re-analysis of the deposited data

How the results depend on the processing

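Ndufv3 was called lower under all 19 alternatives, and it was the only one of the 88 genes called under 18 of them. Scaling by the Y-linked genes, which put the median of all tested genes at -0.83, called 28 of the 88 lower. It called 5181 of all 13441 tested genes lower. At the adjusted p alone it gave 0 higher and 85 lower of the 88, beside 498 and 11096 of all tested genes. It made rises 0% of the genes past the adjusted p, against 61.9%, and put medians at -0.88 for all 88 genes (-0.04 relative to all tested genes, against 0.07), -0.89, -0.91, -0.93, -0.86 and -0.81 for the subunits of complexes I to V, and -0.78 for the assembly factors. Of the genes followed one by one, those that turned under it were Ndufaf1 (-0.82), Ndufaf2 (-0.066), Ndufaf4 (-0.18), Ndufaf5 (-0.75), Ndufaf8 (-0.46), Ndufa3 (-0.51), Ndufa4 (-0.94), Ndufs8 (-0.58), Sdha (-0.83), Sdhb (-0.62), Uqcr10 (-0.69), Uqcr11 (-0.69), Cox4i1 (-0.71), Cox6a2 (-0.50), Cox6b1 (-0.74), Cox7a2 (-0.89), Cox7b (-0.80), Cox7c (-0.73), Atp5a1 (-0.68), Atp5b (-0.68), Atp5e (-0.56), Atp5f1 (-0.74), Atp5g1 (-0.35), Atp5g3 (-0.90), Atp5l (-0.52), Atp5mpl (-0.68), and, outside the 88, mt-Nd1 (-0.19), Cycs (-0.15), Cyc1 (-0.88), Wdr4 (-0.18), Tfb2m (-0.14) and Myc (-0.31). Further genes of the 88 turned too, since 54 of them were above 0 in the main fit. Scaling by the total of recovered reads, quantile normalisation and limma voom put the all-gene median at 0.073, 0.10 and 0.085. The median of the 88 genes was then 0.15, 0.14 and 0.16, of complex I 0.12, 0.11 and 0.13, of complex II 0.16, 0.13 and 0.16, and of the assembly factors 0.13, 0.17 and 0.15. With the first and the last, complex III stood at 0.12 and 0.12, complex V at 0.23 and 0.23, and Cox6a1 at 0.028 and 0.026. Sdhd turned to 0.081, 0.061 and 0.082, Uqcrfs1 to 0.079, 0.051 and 0.081, and Cox4i2 to 0.0054 under quantile normalisation. By limma voom 39 of the 88 genes were higher and 16 lower at the adjusted p, beside 5271 and 4315 of all 13441 tested genes. Median-of-ratios scaling gave 0.085 for complex II, 0.0079 for Sdhd and 0.0061 for Uqcrfs1. Removal of the fit on gene length gave 0.058 for complex II, -0.010 for complex III, -0.0075 for complex IV, -0.0099 for Ndufa4 and -0.0075 for Cox7a2. Leaving out each library gave 21 to 28 genes higher and 15 to 18 lower at the adjusted p. The medians then ran from 0.051 to 0.092 for all 88 genes, from -0.014 to 0.083 for complex I, from 0.063 to 0.083 for complex II, from 0.0047 (without PBS replicate 2) to 0.092 (without PBS replicate 3) for complex III, from 0.071 to 0.12 for complex IV, from 0.093 (without PBS replicate 2) to 0.19 for complex V and from -0.036 to 0.13 for the assembly factors. Differences that turned ran from -0.20 to 0.029 for Ndufa1, -0.021 to 0.018 for Sdhd, -0.030 to 0.010 for Uqcrfs1, -0.26 to 0.028 for Cox8a, -0.19 to 0.038 for Cox6a1, -0.0021 to 0.098 for Ndufa4 and -0.083 to 0.11 for Ndufaf5. The cause of these changes was not tested. With the replicate block, which pairs samples that share only a number, 26 genes were higher (25 of the same 26) and 16 lower (the same 16), and of the other named genes Tfam, Tfb1m and Nrip1 no longer passed (adjusted p = 0.0672, 0.0660 and 0.0826). The other alternatives changed no direction of a named result. Few reads lay behind the alternative isoform genes Cox6a2 and Cox7a1 (7 to 62 per library), and the part of depth in their results was not tested.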

Other observations

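Outside the genes chosen by name, 40 of 47 further assembly factors were tested. At the adjusted p 13 were higher and 13 lower (32.5% each, near the 32.9% and 35.1% of all tested genes), with a median of -0.003. Higd1a, a small inner membrane protein that binds complex IV and is known as a hypoxia-induced gene, was the only one of them past both thresholds. It had 30.6, 29.7 and 33.9 FPKM after PBS and 6.23, 6.67 and 7.23 after cisplatin (limma log2 fold change -2.07, adjusted p = 6.03e-07), a fall of the same order as that of Ndufv3.

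Of 19 regulators of mitochondrial biogenesis 16 were tested, with 7 higher (43.8%, beside 32.9% of all tested genes), 3 lower (18.8%, beside 35.1%; 11 and 0 by limma voom) and a median of 0.21, which was -0.64 under scaling by the Y-linked genes. Pprc1, a coactivator of the PGC-1 family, rose from 6.45 ± 0.66 to 13.5 ± 0.33 FPKM (SD, n = 3, log2 fold change 0.97, limma adjusted p = 2.17e-05). Tfb2m, a mitochondrial transcription factor, rose from 5.36 ± 0.16 to 9.58 ± 0.33 FPKM (0.73), and Myc rose from 25.1 ± 1.46 to 39.9 ± 1.13 FPKM (0.65). These 3 were named after their values were seen, and under scaling by the Y-linked genes the differences were 0.07, -0.14 and -0.31. The 3 genes that were lower were Tfam (-0.23, adjusted p = 0.0371), which packages mitochondrial DNA, Tfb1m (-0.30, adjusted p = 0.0305) and Nrip1 (-0.17, adjusted p = 0.0351). None of these 3 passed with no filter on low values, with scaling by the total of recovered reads, with quantile normalisation, by limma voom or with the replicate block. Nrip1 did not pass when any library was left out (limma adjusted p = 0.055 to 0.10). Tfam did not pass without PBS replicate 1, 2 or 3 or cisplatin replicate 2 or 3. Tfb1m did not pass without PBS replicate 1 or 2 or cisplatin replicate 2 or 3. Nrf1, whose motif was counted in the start regions, had 5.22 ± 0.21 and 5.45 ± 0.090 FPKM (0.05, adjusted p = 0.408). Ppargc1a was not tested and lay between 0.312 and 1.32 FPKM. AA467197, a relative of a complex IV subunit that the name rule does not reach, fell from 19.9 ± 0.092 to 16.8 ± 1.60 FPKM (-0.24, adjusted p = 0.0173, but 0.0763 with scaling by the total of recovered reads and 0.114 by limma voom).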
